A study of Mus musculus with 79 samples.

Results

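Cap1 was measured in 79 libraries from 32 mice, and the mice fell into 2 separate levels of it. The gene was followed as 1 of 23361 rows of the deposited count tables. An animal was classed high when Cap1 reached 100 CPM in its macrophages, where CPM is the count scaled by the library's total count. This gave 10 high and 22 low animals. The gene and its classes were chosen by those macrophage levels and by the difference between repair groups at day 5, so these are described without a test.

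In every mouse, a common peroneal nerve branch was grafted into the tibial nerve through a silicone conduit. Repair was either immediate or made 8 weeks after the tibial branch had been cut, called delayed. For the immediate group of this repair model, the paper describes a first operation 8 weeks before repair. It exposed the sciatic trunk without nerve surgery and was closed again. Macrophages and Schwann cells were sorted from the regenerative bridge that formed in the conduit, 5 or 14 days after repair, with 1000 cells per library and no pooling of animals. The distal stump was taken at day 5. Macrophage libraries came from 9 delayed and 8 immediate mice at day 5 and from 7 and 8 at day 14. Schwann cell libraries came from 9 and 7 mice at day 5 and from 7 and 8 at day 14, and stump libraries from 9 and 7. Both sexes were used. The study's methods name the C57BL/6J strain and a line that expresses green fluorescent protein under the human S100β promoter, bred in-house, and Schwann cells were gated on that protein. Age and genotype of single animals are not given in the sources used here. Each animal is named by its repair group, day and replicate number.

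Cap1 encodes cyclase-associated protein 1, which binds actin monomers, exchanges their nucleotide and works with cofilin to take old filaments apart. Actin turnover of this kind underlies crawling and engulfment by macrophages and the reshaping of Schwann cells after nerve injury. The protein is named for a yeast relative that binds adenylyl cyclase, and it has been described as a receptor for the hormone resistin on monocytes. Cap2 encodes its close relative, best known from muscle.

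Cap1 (ENSMUSG00000028656.14) lies on chromosome 4 of GRCm38, chr4:122859047-122886056, on the minus strand, and spans 27010 bases. GENCODE lists 7 transcripts, of which the 3 that span the gene have 13 exons each and lengths of 2620, 2737 and 2768 bases. Its 3′ end overlaps Ppt1, a lysosomal thioesterase gene on the plus strand that ends at 122859175, by 129 bases. Sorted cells were sequenced from amplified cDNA with a kit that does not mark strand, so reads from those shared bases cannot be assigned to either gene there.

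The promoter window of Cap1 is shown with that of Ptafr, the gene on the same chromosome whose level was most like that of Cap1 in macrophages. Both windows run from 250 bases before to 50 bases after the RefSeq start on GRCm38.p6, at chr4:122886027-122886326 on the minus strand for Cap1 and chr4:132563817-132564116 on the plus strand for Ptafr. Capitals mark a CCAAT box in Cap1, read on the other strand as ATTGG, and a GGGCGG motif in Ptafr, read as CCGCCC.
Cap1: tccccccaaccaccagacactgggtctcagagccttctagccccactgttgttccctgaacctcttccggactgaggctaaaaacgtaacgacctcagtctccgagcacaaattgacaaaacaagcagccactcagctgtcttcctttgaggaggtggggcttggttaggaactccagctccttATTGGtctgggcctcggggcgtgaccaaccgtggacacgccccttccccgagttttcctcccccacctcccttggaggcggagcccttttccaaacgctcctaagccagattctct
Ptafr: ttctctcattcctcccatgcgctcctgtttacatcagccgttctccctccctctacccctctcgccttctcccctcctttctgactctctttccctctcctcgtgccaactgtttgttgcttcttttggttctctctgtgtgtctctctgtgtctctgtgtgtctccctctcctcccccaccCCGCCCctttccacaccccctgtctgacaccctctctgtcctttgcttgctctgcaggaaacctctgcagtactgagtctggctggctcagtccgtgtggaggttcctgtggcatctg
The Cap1 window is 57% G and C with 11 CG pairs, and the Ptafr window is 56.3% with 6, against medians of 52.7% and 7 over 32851 promoters of the same length. On either strand, CCAAT was found in 37.4% of these promoters, GGGCGG in 35.7% and TATAAA in 13.6%. The Cap1 window held 1 CCAAT and 0 of the other motifs, and the Ptafr window held 1 GGGCGG and 0 of the others. These are matches of letters only, and the motifs do not overlap each other.

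Total counts ran from 14928748 to 28499405 in macrophage libraries, from 11614940 to 30796825 in Schwann cell libraries and from 3898778 to 9212710 in stump libraries. Cap1 itself drew from 715 to 5998 counts in a macrophage library, from 446 to 5923 in a Schwann cell library and from 946 to 3073 in a stump library, so counting error was small beside the differences described here. Markers of the labelled cells were checked as summed levels over 7 genes each. Macrophage markers summed to between 11354 and 14241 CPM in the macrophages of high animals and to between 9710 and 15029 CPM in those of low animals. Schwann cell markers summed to between 147 and 3306 CPM in the Schwann cell libraries, where dendritic cell markers summed to between 17054 and 39170 CPM. S100b and Sox10 were each at 0 in 1 of these 31 libraries, with medians of 6.38 and 78.4 CPM. Schwann cell markers there had median sums of 369 CPM in high and 639 CPM in low animals. Those of macrophage markers were 1125 and 907 CPM, and those of 5 fibroblast markers 885 and 2153 CPM. The cells sorted as Schwann cells thus carried far more counts of dendritic cell genes than of Schwann cell genes, in both classes, and the part of this in any level given below was not tested. In the text and captions below, Schwann cells means this sorted fraction and not a pure cell type.

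In macrophages, the 10 high animals spanned 198 to 266 CPM of Cap1, with a mean of 238 CPM (SD 20.1, n = 10). The 22 low animals spanned 31.2 to 63.0 CPM, with a mean of 47.8 CPM (SD 8.23, n = 22). The high mean was 4.99 times the low mean, and no animal lay between. The value just inside the threshold was 198 CPM, from 4130 counts, in the delayed animal 2 of day 5. The value just outside was 63.0 CPM, from 1081 counts, in the delayed animal 8 of day 5. Within a class the animals were close together, with a coefficient of variation of 8.45% in the high and 17.2% in the low class.

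By repair group, the 9 delayed animals of day 5 spanned 49.2 to 266 CPM, with a median of 230 CPM. Of these, 7 were high, at 198 CPM or more, and animals 7 and 8 were low, at 49.2 and 63.0 CPM. None of the 8 immediate animals of day 5 was high (lowest 31.2, median 40.6, highest 53.9 CPM). At day 14 the high level was found after both kinds of repair. Among 7 delayed animals of day 14, animal 1 had 237 CPM, while the other 6 lay between 39.7 and 53.9 CPM. Among 8 immediate animals of day 14, animals 1 and 5 had 240 and 227 CPM, and the other 6 lay between 46.5 and 58.3 CPM. The 3 high animals of day 14 thus fell inside the range of the high animals of day 5, and the day 14 groups overlapped over nearly their whole range.

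**Figure D1:**
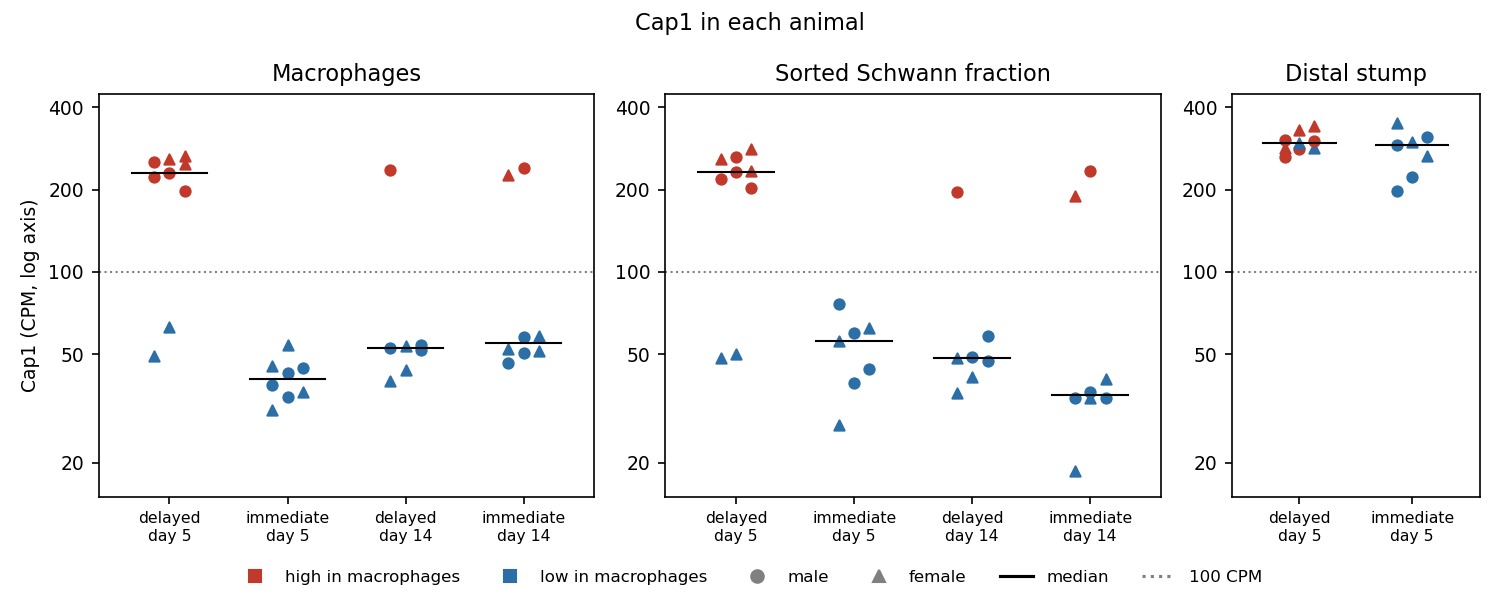
Cap1 in CPM on a log axis for each animal, by repair group and day, in macrophages, sorted Schwann cells and distal stump. Red points are animals high in macrophages and blue points animals low there, circles are males and triangles females, bars are group medians, and the dotted line is 100 CPM. In both sorted cell types no point lies between 76.3 and 189 CPM, while all 16 stump points lie between 198 and 350 CPM.

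The class of an animal was then set against what the labels say of it. At day 14, 1 of 7 delayed and 2 of 8 immediate animals were high, a difference of -10.7 percentage points (Fisher's exact test, two-sided, p = 1, adjusted over 3 class tests to 1). With only 3 high animals at day 14, no split of them between the repair groups could have given a Fisher p under 0.05. That test therefore cannot decide whether class went with repair at day 14, and no conclusion is drawn from it. Of 16 males 6 were high, and of 16 females 4 were high (Fisher's exact test, two-sided, p = 0.704, adjusted 1). The difference by sex did not pass. Of 17 animals of day 5, 7 were high, as were 3 of 15 of day 14, which is given without a test because the day 5 levels chose the gene. Whether the split between repair groups differed between day 5 and day 14 was not tested, since the day 5 values chose the gene.

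Mouse numbers offered another grouping, although the labels do not say whether close numbers mark litters or cages. Each of the 7 blocks of numbers that share their first 3 digits held from 2 to 8 animals, and 6 of the 7 held both high and low animals. The share of high animals ran from 0 of 4 to 3 of 5. Consecutive numbers went both ways. Mice 299197 and 299198, delayed and immediate at day 14, were both high, and so were the delayed mice 288848 and 288849, but mouse 288850, an immediate animal, was low.

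The Schwann cell libraries, which had no part in setting the classes, gave the same split. High animals spanned 189 to 282 CPM, with a mean of 231 CPM (SD 30.4, n = 10), and low animals spanned 18.6 to 76.3 CPM, with a mean of 44.9 CPM (SD 13.1, n = 21). The ratio of the means was 5.15. All 10 high animals lay above every low animal, and a threshold of 100 CPM in these libraries put 31 of 31 animals in the same class as the macrophages did. Both libraries of an animal came from the same bridge, so this is a repeat measurement on the same animals and not on new ones. The highest low value was 76.3 CPM, in the immediate animal 3 of day 5, and the lowest high value was 189 CPM, in the immediate animal 5 of day 14.

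Levels in the 2 kinds of libraries were also set against each other within a class. These values are given without a test, since macrophage levels set the classes and day 5 levels chose the gene. In the high class, Pearson's r was 0.695 and Spearman's rho 0.806 (n = 10). Without the 2 animals farthest from the median macrophage level, r was 0.583 and rho 0.762 (n = 8). Among the 7 high animals of day 5 alone, r was 0.852. The 3 high animals of day 14 were too few for a value. In the low class, r was -0.060 and rho 0.056 (n = 21), with r of 0.215 at day 5 (n = 9) and 0.022 at day 14 (n = 12).

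The level of Cap1 was then compared between the 2 sorted fractions of an animal. On the log2(CPM + 1) scale, Schwann cells minus macrophages averaged -0.12 (SD 0.42, n = 31 animals), and Schwann cells were higher in 13 of 31. This value and those by day are given without a test, since the day 5 levels chose the gene and macrophage levels set the classes. The average was not the same at both days. At day 5 the mean difference was 0.091 (SD 0.34, n = 16), and Schwann cells were higher in 11 of 16. At day 14 it was -0.34 (SD 0.39, n = 15), and Schwann cells were higher in 2 of 15. The 12 low animals of day 14 averaged -0.38 and the 3 high ones -0.19, so both classes had the lower level in the fraction sorted as Schwann cells. The difference between the days itself was not tested.

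**Figure D2:**
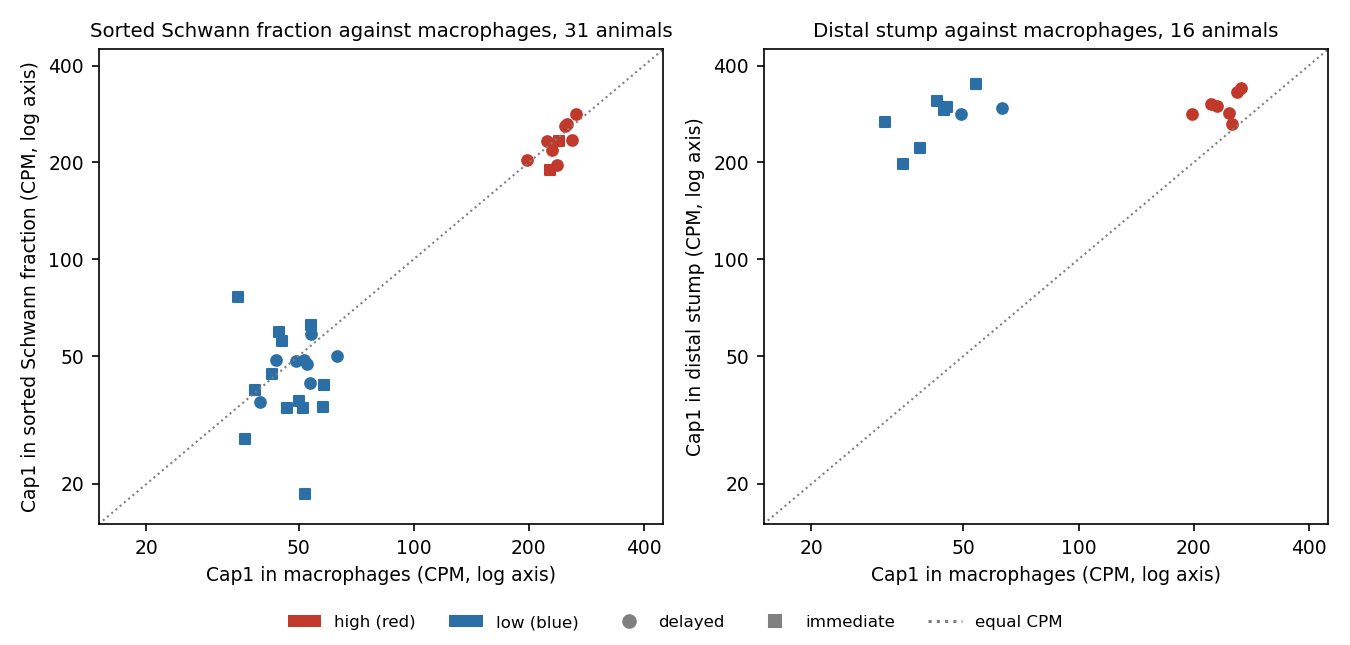
Cap1 of each animal in sorted Schwann cells (left, 31 animals) and in the distal stump (right, 16 animals), in CPM on log axes, against its level in macrophages. Red marks high and blue low animals, circles delayed and squares immediate repair, and the dotted line marks equal CPM. The left panel has 2 separate clouds on the line, with ratio of means 5.15, while in the right panel both classes lie at the same height, with ratio of means 1.08.

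In the distal stump the 2 levels were not seen. The 7 high animals with a stump library spanned 263 to 342 CPM with a median of 300.2 CPM and a mean of 301 CPM (SD 27.6, n = 7). The 9 low animals spanned 198 to 350 CPM with a mean of 280 CPM (SD 45.9, n = 9). All high values lay inside the range of the low values. The difference in mean log2(CPM + 1) was 0.12, a ratio of 1.09, with a 95% permutation interval of the ratio from 0.934 to 1.27 (exact permutation test, two-sided, p = 0.281, 11440 splits). A difference of the size seen in sorted cells lies outside that interval. All 7 high animals were delayed, as were 2 of the 9 low animals, so class and repair largely coincide in the stump.

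The contrast between tissues is described for the 15 day 5 animals with both Schwann cell and stump libraries, with no test, since the day 5 levels of sorted cells chose the gene. On the log2(CPM + 1) scale, high minus low was 2.15 in Schwann cells and 0.11 in the stump of the same animals. The difference between them was 2.04. Stump libraries were made from rRNA-depleted RNA of whole tissue and sorted-cell libraries from amplified cDNA, so the kind of library and the kind of cells cannot be told apart. For the same reason the CPM levels of the stump and of sorted cells are not compared. Other cells of the stump also carry Cap1 counts, and in such bulk tissue fewer cells of a type and less RNA per cell cannot be told apart. Macrophage markers summed to between 2089 and 3302 CPM in the stumps of high animals and to between 841 and 2873 CPM in those of low animals, and Schwann cell markers to between 100.0 and 352 CPM and between 257 and 2174 CPM. Their part in the stump level of Cap1 was not tested.

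Delayed and immediate repair were compared across all genes with edgeR's quasi-likelihood test. In macrophages at day 5, Cap1 was 2.22 log2 units higher after delayed repair (SE 0.29), and in Schwann cells at day 5 it was 1.90 higher (SE 0.38). Both are given as descriptions, since these contrasts chose the gene. They average over 7 high and 2 low delayed animals. Of 8409 genes tested in macrophages at day 5, 0.0357% were called, 0.0119% higher and 0.0238% lower after delayed repair, and of 9604 in Schwann cells, 0%.

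In the stump at day 5, Cap1 was 0.13 log2 units higher after delayed repair (SE 0.11, edgeR adjusted p = 0.386), where 26.3% of 12229 genes were called. Delayed stumps spanned 263 to 342 CPM and immediate stumps 198 to 350 CPM, and the groups overlapped. The estimate fell to 0.055 without the immediate animal 3, which had the lowest stump value at 198 CPM, and to 0.076 without the immediate animal 1, at 222 CPM.

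At day 14, Cap1 did not pass in either cell type. The difference in macrophages was -0.34 log2 units (SE 0.50, edgeR adjusted p = 0.9999) and in Schwann cells -0.33 (SE 0.58, edgeR adjusted p = 0.998), where 0% of 8589 and of 10226 genes were called. These estimates moved with each of the 3 high animals. Without the delayed animal 1, they were -1.01 and -0.84. Without the immediate animal 1, they were 0.0077 and 0.076, and without the immediate animal 5, -0.022 and 0.13. With DESeq2 the macrophage difference was -0.99 (adjusted p = 0.9998).

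**Figure D3:**
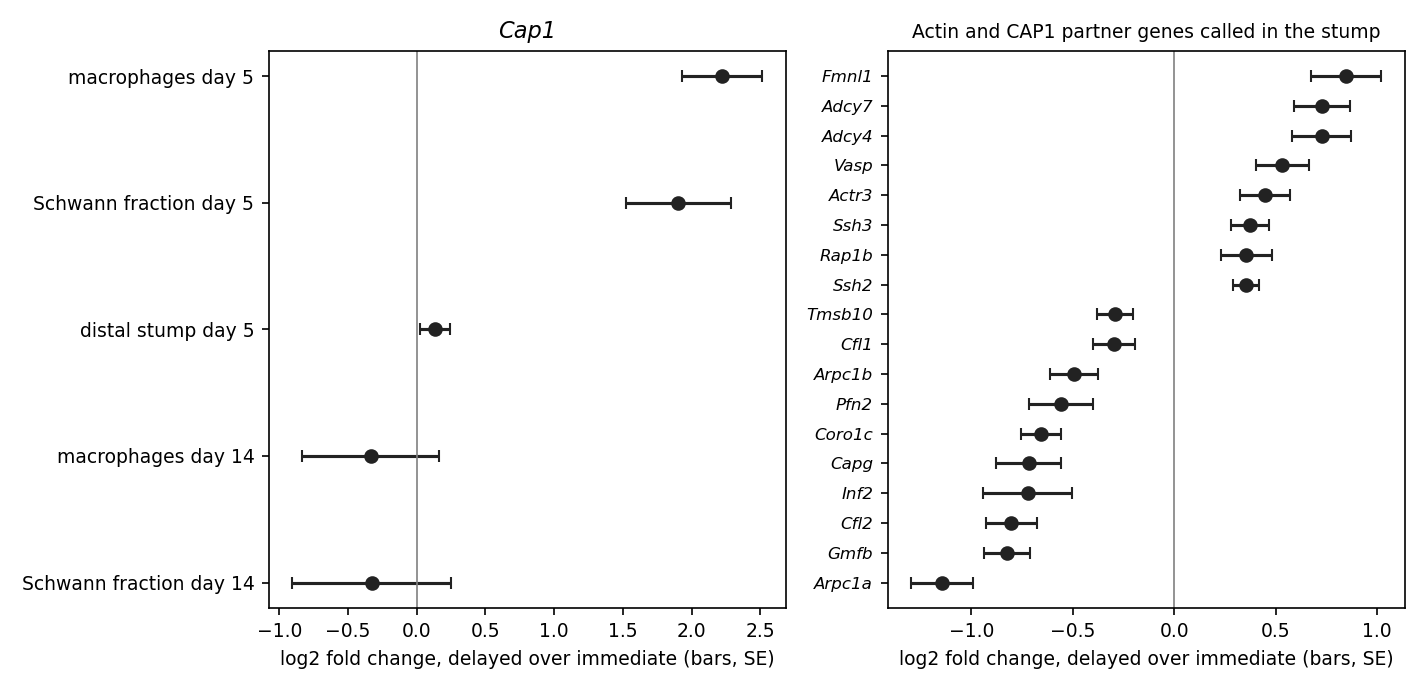
Left, log2 fold change of Cap1, delayed over immediate repair, in the 5 comparisons. Right, the 18 actin and CAP1 partner genes called in the distal stump at day 5. Points are edgeR estimates, bars their SE. Cap1 stands at 2.22 and 1.90 in sorted cells of day 5 and nearer 0 elsewhere, at 0.13, -0.34 and -0.33, while the partner genes range from -1.14 for Arpc1a to 0.85 for Fmnl1.

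To place Cap1 among other genes of the actin machinery, a list of 54 genes was drawn up from textbook knowledge, with monomer-binding proteins, severing and turnover factors, nucleators and elongators, actins and capping proteins, and other CAP1 partners. At day 5, 45 of these were tested in macrophages and 47 in Schwann cells, and at day 14 45 and 48, and edgeR called 0 in each of these 4 comparisons. Over all genes edgeR called 0.0357% in macrophages at day 5 and 0% in the other 3, so a count of 0 for the list is no more than the background share. Before adjustment, 5, 2, 0 and 0 of the list had a p under 0.05. Over all genes these were 435 of 8409, 505 of 9604, 190 of 8589 and 373 of 10226. DESeq2 also called 0 of the list in each, and 17, 14, 0 and 3 over all genes. Their median log2 fold changes were 0.060, -0.071, -0.0071 and -0.11, against 0.012, -0.014, 0.0015 and -0.0060 over all genes tested.

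Values of 3 genes whose products act beside CAP1 on the same filaments follow, first for macrophages at day 5. Actb, which encodes cytoplasmic β-actin, differed by 0.012 log2 units (SE 0.10, edgeR adjusted p = 0.995). Cfl1, the gene of cofilin 1, differed by -0.084 (SE 0.077, edgeR adjusted p = 0.975). Pfn1, the gene of profilin 1, which feeds monomers to growing ends, differed by 0.044 (SE 0.099, edgeR adjusted p = 0.990). In Schwann cells at day 5 the same 3 genes stood at -0.10, -0.074 and -0.045 (edgeR adjusted p from 0.984 to 0.991). At day 14 they stood at 0.0015, -0.089 and -0.072 in macrophages (edgeR adjusted p = 0.9999 for each) and at -0.18, -0.17 and -0.34 in Schwann cells (edgeR adjusted p = 0.998 for each).

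Cap2 was at 0 in 32 of 32 macrophage libraries and above 0 in 4 of 31 Schwann cell libraries, where it reached 14.6 CPM. It was above 0 in 16 of 16 stump libraries, with a median of 1.91 and a highest value of 20.9 CPM. Macrophages of high and low animals alike thus had no Cap2 counts. In Schwann cells Cap2 was 3.96 CPM in a high animal and 4.23, 8.57 and 14.6 CPM in low animals.

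In the stump, 18 of 51 tested actin and partner genes were called, 35.3% against 26.3% of all genes, with 8 higher and 10 lower after delayed repair. Over all genes 12.8% were higher and 13.5% lower. The median of the list was 0.034 log2 units and that of all genes 0.019. Ssh2, a cofilin phosphatase, rose by 0.35 (SE 0.065, edgeR adjusted p = 0.000839). The adenylyl cyclase genes Adcy7 and Adcy4 each rose by 0.73 (SE 0.14 and 0.15, edgeR adjusted p = 0.00103 and 0.00158). The other genes that rose were Fmnl1, Vasp, Actr3, Ssh3 and Rap1b, from 0.36 to 0.85. Arpc1a, a subunit of the Arp2/3 complex that starts branched filaments, fell by 1.14 (SE 0.15, edgeR adjusted p = 5.24e-05). Gmfb, which takes such branches apart, fell by 0.82 (SE 0.11, edgeR adjusted p = 6.41e-05). Coro1c, a coronin, fell by 0.65 (SE 0.099, edgeR adjusted p = 0.000163). The other genes that fell were Cfl2, Inf2, Capg, Pfn2, Arpc1b, Cfl1 and Tmsb10, from -0.80 to -0.29. Cfl1 was among these at -0.30 (SE 0.10, edgeR adjusted p = 0.0449), while Actb stood at 0.015 and Pfn1 at -0.027 (edgeR adjusted p = 0.952 and 0.926). Schwann cell markers in the stump moved with the same split, with a median sum of 205 CPM in high and 1409 CPM in low animals, and their part in these differences was not tested.

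How unusual the split of Cap1 was among genes was described by the widest gap between neighbouring animals in log2(CPM + 1), with at least 3 animals on each side. In macrophages Cap1 had a gap of 1.63 and ranked 21st of 8949 genes that reached 5 CPM in 6 or more animals. In Schwann cells its gap was 1.30 and its rank 373 of 10923, and in the stump its gap was 0.090 and its rank 10071 of 12228. The widest gaps in macrophages belonged to Xist, Gm5506, Amd1, H2-Ea-ps and Eif2s3y, of which Xist and Eif2s3y mark sex. These genes split the animals otherwise than Cap1 did, with 14, 11, 12, 12 and 18 of 32 animals on the same side as for Cap1.

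No other gene shared the split. Of the other 8948 genes in macrophages, 0 (0%) had values that did not overlap between high and low animals, and of 10922 in Schwann cells also 0 (0%). The gene whose own widest gap split the animals most like Cap1 was Ptafr, with 30 of 32 animals on the matching side. In the stump, where class and repair largely coincide, 88 of 12227 genes (0.72%) did not overlap between the classes, and Cap1 was not one of them.

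Likeness to Cap1 was measured as Pearson's r of log2(CPM + 1) across the 32 macrophage libraries, as a description. Since 7 of the 10 high animals belonged to 1 group, r was also taken with the means of the 4 groups of repair and day removed. The 10 genes with the largest absolute r were Ptafr (0.87), C1qb (-0.72), Tm9sf3 (0.65), Cd52 (-0.64), Vmn2r96 (0.64), Papola (0.63), Eya3 (0.63), Jmy (-0.63), Csf3r (0.62) and C1qc (-0.62). With the group means removed, only Ptafr and Cd52 stayed among the top 10, at 0.83 and -0.72, and the other 8 stood between -0.63 and 0.65. Values of all 10 overlapped between high and low animals.

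**Figure D4:**
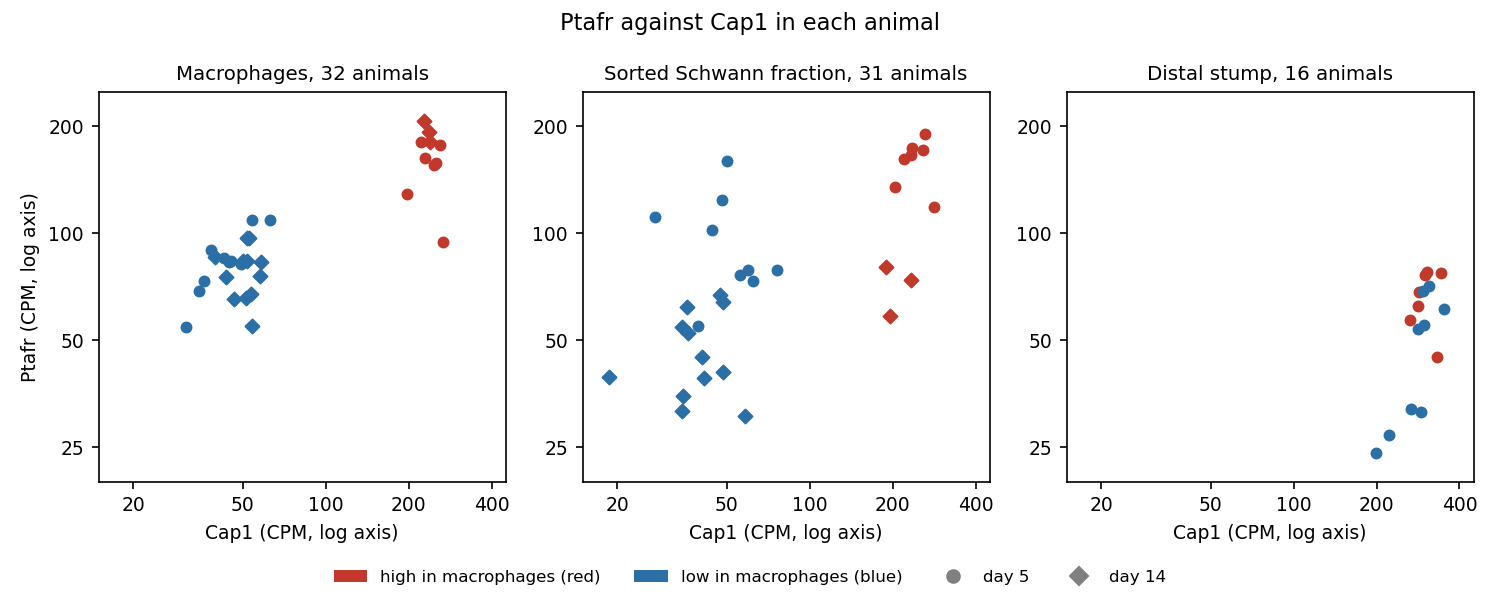
Ptafr against Cap1 for each animal, in CPM on log axes, in macrophages, sorted Schwann cells and distal stump. Red marks animals high in macrophages and blue low animals, circles day 5 and diamonds day 14. In macrophages high animals span 94.6 to 207 CPM of Ptafr and low animals 54.4 to 109 CPM, so 9 of the 10 red points lie above all blue points.

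Ptafr encodes the receptor for platelet-activating factor, a lipid signal of inflammation. In macrophages its level was 94.6 to 207 CPM in high animals (median 170) and 54.4 to 109 CPM in low animals (median 83.1). The only high animal inside the low range was the delayed animal 9 of day 5, at 94.6 CPM, which had the highest Cap1 of all. At day 14 the 3 high animals had 193, 181 and 207 CPM, and the 12 low animals lay between 54.9 and 97.0 CPM, with no overlap. Its r with Cap1 was 0.87 at day 5 and 0.91 at day 14. Within the classes r was -0.19 among high and 0.39 among low animals, both smaller in size than across all animals.

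In Schwann cells the likeness of Ptafr was weaker, with r = 0.66, or 0.41 with the group means removed. High animals spanned 58.7 to 190 CPM (median 148) and low animals 30.7 to 160 CPM (median 62.2). At day 14 the high animals had 58.7, 74.1 and 80.5 CPM, and the low animals 30.7 to 66.9 CPM. In the stump, Ptafr was 0.61 log2 units higher after delayed repair (SE 0.22, edgeR adjusted p = 0.0466), and its r with Cap1 was 0.72 over 16 libraries. In sorted cells of day 5 Ptafr did not pass, at 0.71 in macrophages (SE 0.17, edgeR adjusted p = 0.297) and 0.90 in Schwann cells (SE 0.17, edgeR adjusted p = 0.164).

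Other genes of the likeness list act in innate immunity. C1qb and C1qc encode chains of complement C1q, made by tissue macrophages. C1qb was lower in high animals, at 1442 to 3045 CPM (median 1866) against 2170 to 4443 CPM (median 3091). C1qc was at 1066 to 2090 CPM (median 1446) against 1317 to 3015 CPM (median 2068). Cd52, a small surface glycoprotein gene of leukocytes, was at 99.9 to 198 CPM (median 127) against 140 to 298.2 CPM (median 199.96). Csf3r, the receptor gene for granulocyte colony-stimulating factor, was at 113 to 239 CPM (median 179) against 65.6 to 163 CPM (median 107). In the stump the r of C1qb, Cd52 and C1qc with Cap1 was positive, at 0.82, 0.84 and 0.83, the opposite sign to that in macrophages.

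The remaining genes of the list have general roles. Papola, a poly(A) polymerase gene, was at 238 to 310 CPM in high and 206 to 270 CPM in low animals. Tm9sf3, a membrane protein gene, was at 457 to 538 and 378 to 521 CPM. Jmy, which encodes an actin nucleator, was scarce, at 0.928 to 7.06 CPM in high and 2.93 to 18.8 CPM in low animals. Eya3, a phosphatase and coactivator gene, was at 16.2 to 43.1 and 14.1 to 28.7 CPM. Vmn2r96, from a family of vomeronasal receptors, was at 1.07 to 10.49 and 0 to 9.42 CPM. Vmn2r96 belongs to a multigene family whose members can share reads, so its level is uncertain. In Schwann cells the absolute r of Tm9sf3, Papola, Jmy, C1qb, C1qc and Csf3r was at most 0.27.

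By position, 6 of the 10 genes lay on chromosome 4 with Cap1, where 6.22% of 8895 placed genes lie. All 6 lay to the side of higher coordinates, from Csf3r at 3.14 Mb from the start of Cap1 through Ptafr at 9.68, Eya3 at 9.75, Cd52 at 11.2 and C1qb at 14.0 to C1qc at 14.0 Mb. That they lay on 1 side depended on the cut. Med8, at -4.48 Mb, had r = 0.613 and just missed the list. It was in the top 10 after TMM scaling and, ahead of Ptafr, by Spearman's rho. Galt, at -81.1 Mb, was in the top 10 with the group means removed. The count on this chromosome was 5 of the top 10 with the group means removed and 4 with Spearman's rho, but 2 at day 5 alone and 4 at day 14 alone. In Schwann cells it was 4, and 0 with the group means removed.

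**Figure D5:**
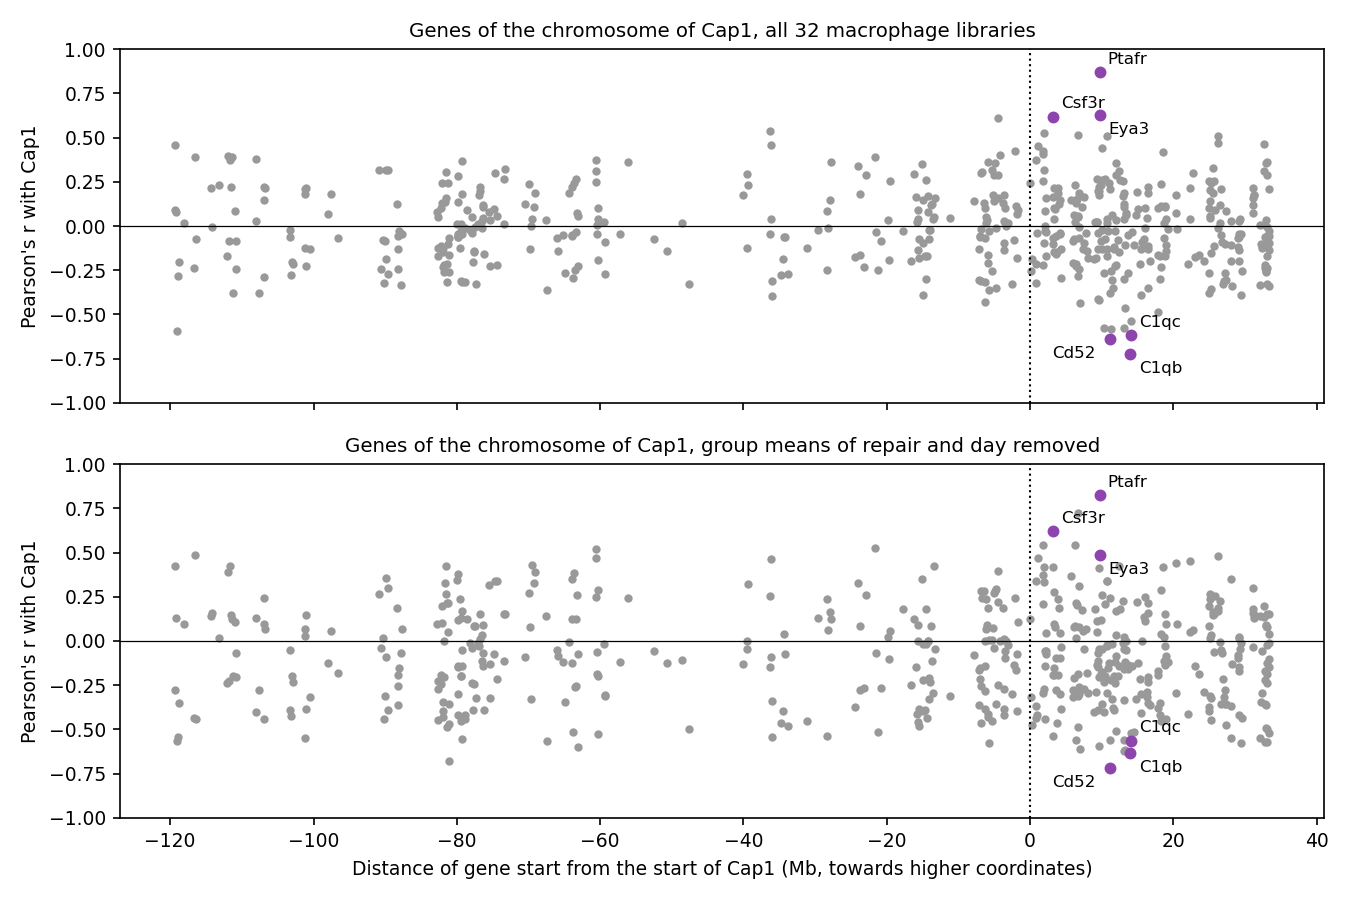
Pearson's r with Cap1 across 32 macrophage libraries for 553 genes of its chromosome, against the distance of the gene start from that of Cap1 in Mb, before (top) and after (bottom) removing the means of the repair and day groups. Purple points are the genes among the 10 most like Cap1 over all genes. Ptafr has the largest r in both panels, at 0.87 and 0.83, and the 5 nearest genes on each side of Cap1 run from -0.32 to 0.37 in the top panel.

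The 5 nearest genes on each side of Cap1 at the minimum level lay within 1.96 Mb before and 0.864 Mb after the start of Cap1, and their r in macrophages ran from -0.32 for Ndufs5 to 0.37 for Akirin1. In Schwann cells it ran from -0.34 to 0.29. Ppt1, which overlaps the 3′ end of Cap1, had r = 0.25 in macrophages, with 162 to 302 CPM in high and 153 to 288.5 CPM in low animals. On the other side, Trit1, a tRNA-modifying enzyme gene 0.131 Mb away, had r = -0.25. The median absolute r in macrophages was 0.152 for the 66 genes within 5 Mb, 0.163 for 72 genes from 5 to 10 Mb and 0.167 for 71 genes from 10 to 15 Mb, against 0.149 for 8342 genes on other chromosomes. With the group means removed, the medians were 0.245, 0.228 and 0.209, against 0.228. In Schwann cells with the group means removed, they were 0.153, 0.179 and 0.186, against 0.173.

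Depth and markers of other cells were set beside the classes. In macrophages, total counts ran from 14928748 to 26942293 in high and from 16359488 to 28499405 in low animals. Dendritic cell markers summed to between 1724 and 11250 CPM in high and between 1035 and 17836 CPM in low animals, with medians of 2932 and 7077. Fibroblast markers summed to between 2.19 and 46.0 CPM in high and between 2.15 and 699 CPM in low animals. Schwann cell markers summed to between 47.9 and 166 CPM and between 61.2 and 204 CPM, and Sox10 was at 0 in 28 of 32 macrophage libraries. All these ranges overlapped, and their part in the 2 levels of Cap1 was not tested.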

How the data were processed

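The authors trimmed reads with cutadapt 1.8, removed rRNA reads from stump libraries with bowtie2, and aligned to mm10 with TopHat2 2.1.1 and UCSC genes. The authors deposited 3 tables of estimated counts per gene without normalization or filters. The program behind them is not given in the sources used here. Between 0.951% and 1.18% of the values were not whole and were rounded for the count tests. CPM used the library total.

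Groups came from the labels. Within each sample type and day, delayed repair was compared with immediate repair by edgeR 4.0.16 (R 4.3.3) after TMM scaling, without covariates, over genes that reached 5 CPM in 6 or more animals, at a Benjamini-Hochberg adjusted p under 0.05. Single values were compared with exact permutation tests over animals on log2(CPM + 1), and classes with Fisher's exact test (scipy 1.17.1). Alternatives were DESeq2 1.42.0, library size scaling, filterByExpr, no filter, sex in the model, a replicate block, each library left out, class thresholds of 50 and 200 CPM, and a pseudocount of 0.1. The edgeR test was tested on simulated data, where 2-fold changes were recovered at day 5 for 82.6% (macrophages), 21.9% (Schwann cells) and 91.9% (stump) of changed genes, and at day 14 for 86.7% (macrophages) and 29.7% (Schwann cells).

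The genes named are Cap1, Cap2, actin and partner genes (Actb, Cfl1, Pfn1 and up to 3 called genes per direction with the smallest p, the others called being listed by name only), the 10 most like Cap1, the 5 nearest genes on each side of it, and the 5 with the widest gaps. Med8 and Galt are named as genes that entered the top 10 under other settings. 0 rows named Cap1 pseudogenes. The gene and all lists were chosen with earlier results of these data known. Positions are from GENCODE and promoters from RefSeq.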

Additional observations from a re-analysis of the deposited data

Results flagged for a closer look

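In macrophages, the delayed animal 1 of day 14 had 237 CPM of Cap1 and stood far above the other 6 animals of its group, which lay between 39.7 and 53.9 CPM. In the Schwann cells of the same animal Cap1 was 196 CPM, again far above the other 6 of its group. The measure used, Dixon's ratio of the gap to the whole range, marks about 1 in 20 groups by chance where animals share 1 level. That rate does not apply here, since this macrophage level itself put the animal in the high class. The Schwann cell value is of the same animal and is not a separate flag.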

How the results depend on the processing

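Of 240 alternatives, 218 kept the direction and the side of the threshold, or a value close to the main one. At day 14, leaving out 1 library moved the repair difference of Cap1 from -1.01 to 0.0077 in macrophages and from -0.84 to 0.13 in Schwann cells, with edgeR adjusted p of at least 0.985 throughout. With replicate numbers as a block, the Schwann cell difference at day 14 turned to 0.41 (edgeR adjusted p = 0.9995). In macrophages at day 14 the block gave -0.067 (SE 0.091). Deviations of same-numbered delayed and immediate animals from their group means were correlated over genes. In macrophages, r ran from -0.013 to 0.48 at day 5 and from 0.037 to 0.48 at day 14. In Schwann cell libraries it ran from -0.18 to 0.30 and in the stump from -0.26 to 0.11. The labels do not say what the numbers stand for. The main tests did not use them as pairs, and whether such animals shared a batch was not tested. With classes at 50 CPM, a threshold inside the low cluster that made 21 animals high, the share of high animals at day 5 minus day 14 turned to -27.1 percentage points, and high minus low in the stump reached 0.21 (exact permutation p = 0.0425). The difference of Schwann cells minus macrophages was 0.091 at day 5 and -0.34 at day 14. Within the high class Pearson's r was 0.618 after TMM scaling and 0.583 without the 2 farthest animals, and Spearman's rho was 0.782 and 0.762. Within the low class r turned to 0.096, 0.010, 0.215 and 0.022 after TMM scaling, without the 2 farthest animals, at day 5 and at day 14. The cause of these shifts was not tested, apart from the fewer animals of the last settings. At day 5, edgeR called 3 genes in macrophages and 0 in the Schwann cell libraries, and DESeq2 called 17 and 14. With sex as a covariate they were 8 and 1, and with the block 12 genes were called in macrophages. At day 14, DESeq2 called 3 genes in Schwann cells and edgeR 0. By Spearman's rho the likeness of Ptafr to Cap1 was 0.689. In simulated counts of this depth and spread, fewer changed genes were recovered in Schwann cell libraries than in the other 2 kinds.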
